A study of Mus musculus with 12 samples.

Results

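The genes described here are 5 interferon-induced GTPases of the mouse, Igtp, Gbp3, Gbp2, Iigp1 and Irgm1, in cardiac muscle. They were chosen by name from an earlier look at the same arrays, in which Igtp stood out for its difference between diabetic and healthy hearts and the 2 diabetic pools of week 1 stood apart from the other 10 arrays. All 5 genes are on the Affymetrix MG_U74Av2 oligonucleotide array, with 6 probe sets in all (Iigp1 has 2), out of 12422 probe sets that are not controls and 8251 named genes. All 6 probe sets passed the filter on dim signals and were among the 7453 tested.

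Cardiac muscle came from male NMRI mice aged 10 to 15 weeks, an outbred stock. Diabetic mice had received 1 injection of streptozotocin (180 mg/kg), a toxin of insulin-producing beta cells used as a model of type 1 diabetes, and healthy mice the citrate buffer alone. The 4 groups were diabetic trained, diabetic sedentary, healthy trained and healthy sedentary, each with 1 array at 1, 3 and 5 weeks, 12 arrays in all. Trained mice ran on a treadmill 5 days a week, 1 h daily, at a speed of 21 m/min and an incline of 2.5 degrees, and were killed 24 h after their final run together with their sedentary partners. Every array holds the pooled RNA of 5 mice, so no array shows a single animal. With week in the models, the p-values below rest on how differences between pools vary from week to week, and not on animals. For diabetes at weeks 3 and 5 and for week 1 in healthy hearts, these are the differences between trained and sedentary pools only.

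Interferons are cytokines that cells release against viruses and intracellular microbes. Interferon gamma, made mainly by T cells and natural killer cells, and the type I interferons signal through Jak kinases and Stat transcription factors and switch on genes that carry interferon response elements in their promoters. Among the most strongly induced in mouse cells are 2 families of GTPases. The immunity-related GTPases hold regulators such as Irgm1 and Igtp (also named Irgm3), which sit on the cell's own membranes, and effectors such as Iigp1, which load onto vacuoles that hold parasites. The guanylate-binding proteins, among them Gbp2 and Gbp3, are larger GTPases that assemble on the same vacuoles and on bacteria.

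Since all 5 genes are known to be induced by interferon, the stretch just before the start of transcription is shown for the 4 genes with an entry among the RefSeq promoters of build GRCm38.p6. Each stretch is the 120 bases before the annotated start, 5′ to 3′ on the gene's own strand. Capitals mark matches to the core of the interferon-stimulated response element, searched as GAAANNGAAA on both strands, so that the other strand reads TTTCNNTTTC.
Igtp, chr11:58199436-58199555, plus strand: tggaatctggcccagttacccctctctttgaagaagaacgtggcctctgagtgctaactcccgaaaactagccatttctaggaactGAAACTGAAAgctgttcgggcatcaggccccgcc
Irgm1, chr11:48871421-48871540, minus strand: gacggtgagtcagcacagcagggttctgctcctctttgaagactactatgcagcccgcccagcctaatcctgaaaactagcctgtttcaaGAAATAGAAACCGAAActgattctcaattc
Gbp2, chr3:142620543-142620662, plus strand: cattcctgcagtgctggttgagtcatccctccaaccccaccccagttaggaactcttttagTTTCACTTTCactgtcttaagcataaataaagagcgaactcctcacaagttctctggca
Gbp3, chr3:142559924-142560043, plus strand: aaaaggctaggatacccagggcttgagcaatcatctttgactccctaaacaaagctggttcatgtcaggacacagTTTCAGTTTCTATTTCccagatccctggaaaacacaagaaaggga

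The core was present in all 4 promoters, once each in Igtp and Gbp2 and as 2 overlapping matches in Irgm1 and in Gbp3. Over the 250 bases before each annotated start, 978 of 32851 windows of the whole table held it (2.98%). A second, downstream start of Gbp3 held none. The gamma-activated site, searched as TTCNNNGAA (the same on both strands), was found in the 250 bases of Igtp alone of the 4 genes, 45 bases before the start and outside the capitals, and in 7.02% of all windows. These are matches of letters and not measured binding sites. In the annotation Gbp7, Gbp3 and Gbp2b follow one another on chromosome 3, with Gbp2 next after Gbp2b, and Irgm2 follows Igtp on chromosome 11.

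Signals are MAS5 probe set intensities, and the arrays share a common trimmed mean. They are compared within a probe set only. The 4 arrays of week 1 shared a run day and a chip lot, so diabetic and healthy week 1 hearts were compared within 1 batch. Each condition was washed on a fluidics module of its own, and the effects of module and condition cannot be told apart. Median signals lay between 16.6 and 20.4 on 11 arrays. The diabetic trained array of week 3, labelled again and run on a day and lot of its own, had a median of 25.4 and the lowest mean correlation with the other arrays (0.853, against 0.940 to 0.953 for the others). Where an overlap with a diabetic week 1 pool comes from it alone, the range or the order without it is given too. Among 19 control probe sets for bacterial and yeast RNA the brightest signal on any array was 13.8, which serves here as a mark of unspecific signal.

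At week 1 of diabetes, Igtp, Gbp3, Gbp2 and both Iigp1 probe sets had their 2 highest signals of the series, 4.87-fold to 8.56-fold above the geometric mean of the other 10 arrays. Irgm1 was 1.76-fold above it and overlapped with the other arrays. At weeks 3 and 5 the signals of diabetic hearts lay closer to those of healthy hearts, with Igtp and Iigp1 still above the healthy range of those weeks. These values chose the genes, so they are a description and carry no test.

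Igtp, a membrane-bound regulator of the family, had signals of 131.6, 44.2 and 26.3 in diabetic trained hearts and 199.8, 27.0 and 20.3 in diabetic sedentary hearts at weeks 1, 3 and 5. In healthy trained hearts it had 22.8, 10.5 and 12.2, and in healthy sedentary hearts 16.9, 15.6 and 12.1. The week 1 diabetic pools were the 2 highest of all arrays, and the lower of them was 2.98 times the next highest, the diabetic trained array of week 3. At weeks 3 and 5 the 4 diabetic arrays (20.3 to 44.2) did not overlap with the 4 healthy arrays (10.5 to 15.6). Only 9 of the 12 Igtp signals were above 13.8, with the other 3 all in healthy hearts, so its low levels are less certain than its high ones. All 12 were above the highest bacterial or yeast control of their own array.

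Irgm1, the other regulator, did not have both week 1 diabetic pools above all other arrays. Its signals were 21.6, 17.1 and 24.5 in diabetic trained hearts and 29.4, 13.9 and 15.7 in diabetic sedentary hearts at weeks 1, 3 and 5, against 15.1, 8.0 and 20.2 in healthy trained hearts and 9.9, 9.6 and 17.5 in healthy sedentary hearts. The diabetic sedentary pool of week 1 was the highest array, but the diabetic trained pool of week 1 lay below that of week 5. Signals of Irgm1 were above 13.8 on 9 arrays and above the highest bacterial or yeast control of their own array on 10.

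Iigp1, an effector that loads onto parasite vacuoles, was read by both of its probe sets with the same order of groups at week 1. The brighter probe set gave 369.7, 92.6 and 89.9 in diabetic trained hearts and 578.5, 131.0 and 100.5 in diabetic sedentary hearts, against 108.1, 44.0 and 77.1 in healthy trained hearts and 77.4, 74.5 and 87.9 in healthy sedentary hearts (weeks 1, 3 and 5). The dimmer probe set gave 156.5, 41.1 and 62.9 in diabetic trained hearts and 196.6, 66.2 and 46.9 in diabetic sedentary hearts, against 31.3, 24.7 and 40.7 in healthy trained hearts and 20.8, 20.1 and 34.7 in healthy sedentary hearts. In both, the diabetic week 1 pools were the 2 highest arrays, and the diabetic arrays of weeks 3 and 5 lay above the healthy arrays of those weeks. The gap was narrow in both, with 89.9 to 131.0 against 44.0 to 87.9 in the brighter probe set and 41.1 to 66.2 against 20.1 to 40.7 in the dimmer one. The dimmer probe set has the suffix that Affymetrix gives to sets able to read related genes, so it may hold signal of a near relative.

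Gbp2, a guanylate-binding protein, had 208.4, 31.9 and 73.2 in diabetic trained hearts and 335.5, 43.5 and 58.5 in diabetic sedentary hearts at weeks 1, 3 and 5. In healthy trained hearts it had 57.0, 61.0 and 58.5, and in healthy sedentary hearts 49.9, 26.0 and 45.6. Outside week 1 the diabetic and healthy ranges overlapped, 31.9 to 73.2 against 26.0 to 61.0.

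Gbp3, of the same family, had 190.1, 49.6 and 42.5 in diabetic trained hearts and 292.7, 49.9 and 38 in diabetic sedentary hearts, against 45.2, 30.4 and 37.2 in healthy trained hearts and 29.0, 24.4 and 43.7 in healthy sedentary hearts (weeks 1, 3 and 5). The lower of its week 1 diabetic pools was 3.81 times the highest of the other 10 arrays, the widest such gap of the 6 probe sets. At weeks 3 and 5 the diabetic range (38 to 49.9) overlapped with the healthy one (24.4 to 43.7).

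**Figure D1:**
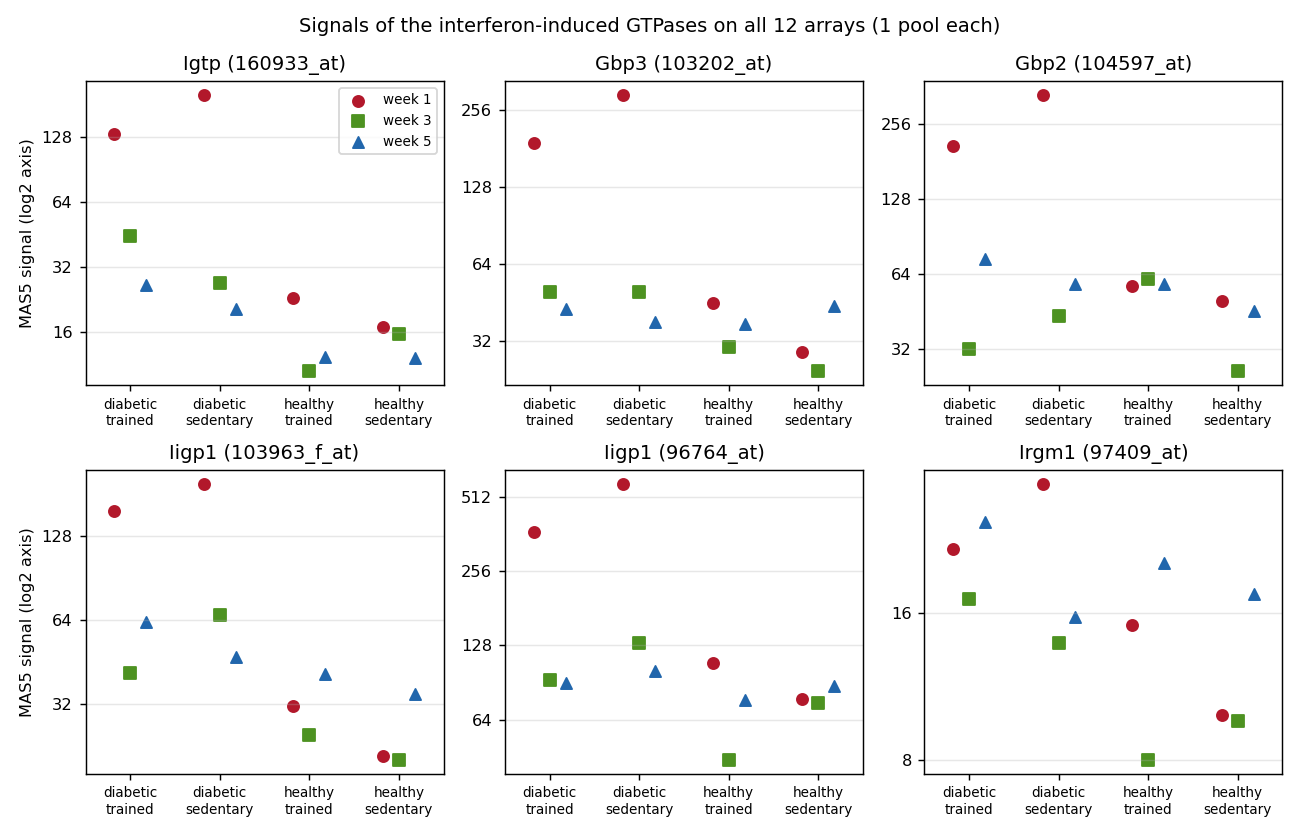
MAS5 signal (log2 axis) of the 6 probe sets of the 5 GTPase genes in each group, 1 point per array and pool, with colour and shape for the week, and the dimmer Iigp1 probe set marked by its ending _f_at. The diabetic pools of week 1 are the 2 highest points in 5 panels, and in the Irgm1 panel the diabetic trained pool of week 1 (21.6) lies below that of week 5 (24.5).

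Set against its week 1 partner of the same training state, each probe set was higher in diabetic hearts, and more so in the sedentary pair. The signal of Igtp in diabetic hearts was 5.77 times the healthy one in the trained pair and 11.8 times in the sedentary pair. Gbp3 stood at 4.21 and 10.1 times, Gbp2 at 3.66 and 6.72 times, Iigp1 at 3.42 and 7.47 times by the brighter probe set and 5.00 and 9.45 times by the dimmer one, and Irgm1 at 1.43 and 2.97 times, each with the trained pair given before the sedentary pair. The median of the 6 log2 differences was 1.97 in trained and 3.07 in sedentary hearts at week 1, where the median over all tested probe sets was near 0 (-0.0035 and -0.04). Of all tested probe sets, 0.698% were at least 2-fold higher in both week 1 pairs, 5 of the 6 among them, and 2.03% had both diabetic week 1 arrays above the other 10, the same 5 among them.

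By week 3 the median log2 difference of the 6 probe sets was 0.90 in the trained pair and 0.80 in the sedentary pair, and by week 5 it was 0.30 and 0.28. All 6 were higher in the diabetic array in the sedentary pair of week 3 and in the trained pair of week 5. Gbp2 was lower in the diabetic array in the trained pair of week 3 (-0.94), and Gbp3 (-0.20) and Irgm1 (-0.16) in the sedentary pair of week 5. Igtp alone differed by more than 0.7 in each pair of weeks 3 and 5, from 0.75 to 2.07, and its largest difference there rests on the diabetic trained array of week 3. Averaged over both pairs, Igtp was 8.26-fold higher at week 1, 2.70-fold at week 3 and 1.90-fold at week 5, Gbp3 6.52-fold, 1.83-fold and 1.00-fold, and Gbp2 4.96-fold, 0.94-fold and 1.27-fold.

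**Figure D2:**
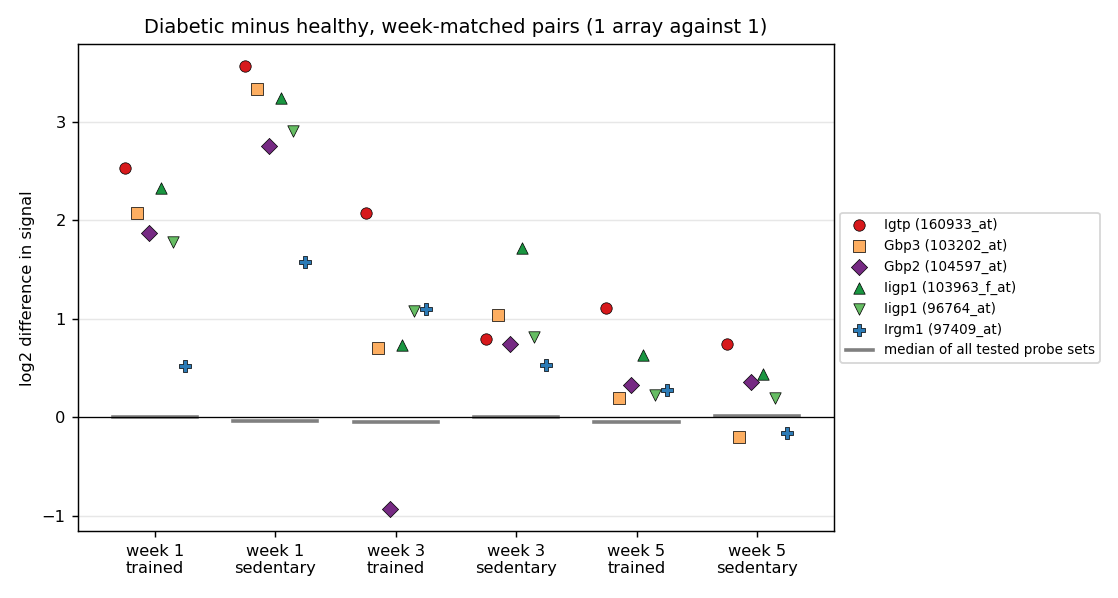
Log2 difference in signal, diabetic minus healthy, in each week-matched pair of arrays (trained and sedentary pairs of weeks 1, 3 and 5), 1 point per probe set, with the median of all tested probe sets as a grey bar. The points lie highest in both pairs of week 1 (0.52 to 3.56) and between -0.94 and 2.07 in the other 4 pairs.

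In the fit over all weeks and both training states the log2 differences between diabetic and healthy hearts were 1.80 for Igtp (SE 0.33), 1.51 and 1.16 for Iigp1 (SE 0.32 and 0.30, the dimmer probe set first), 1.19 for Gbp3 (SE 0.36), 0.85 for Gbp2 (SE 0.35) and 0.64 for Irgm1 (SE 0.26). Igtp was chosen from that comparison, in which limma called 0.765% of all tested probe sets, 0.376% as higher and 0.389% as lower in diabetic hearts, so these values are given without a test. All 6 diabetic arrays lay above all 6 healthy arrays in 0.389% of the tested probe sets. Among the probe sets of the GTPases only the dimmer one of Iigp1 did so, by a narrow gap. Its lowest diabetic signal was 41.1 and its highest healthy signal 40.7.

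The diabetes effect outside the week 1 pools was tested as the mean difference over weeks 3 and 5, 4 diabetic against 4 healthy arrays, with a model that lets the effect differ by week. A change of the diabetes difference between weeks 3 and 5 is therefore not part of the SE or p. None of the 5 probe sets of Gbp3, Gbp2, Iigp1 and Irgm1 passed by limma with Benjamini-Hochberg adjustment, where 7 of 7453 probe sets did (0.0939%, with 0.0537% higher in diabetic hearts). Both Iigp1 probe sets had an unadjusted p under 0.05. Iigp1 was 1.84-fold higher by the dimmer probe set (log2 difference 0.88, SE 0.21, adjusted p = 0.167) and 1.49-fold higher by the brighter one (0.58, SE 0.20, adjusted p = 0.383), each with all 4 diabetic arrays above all 4 healthy arrays. The difference was 0.44 for Irgm1 (SE 0.31, adjusted p = 0.682), 0.43 for Gbp3 (SE 0.21, adjusted p = 0.544) and 0.12 for Gbp2 (SE 0.23, adjusted p = 0.889). That of Gbp3 averages 0.71 and 1.03 in the trained and sedentary pairs of week 3 with 0.19 and -0.20 in those of week 5. Igtp, whose differences of all weeks were known when it was chosen, had a mean difference of 1.18 (SE 0.28), given without a test.

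Leaving out the diabetic trained array of week 3 raised the Iigp1 difference by the dimmer probe set to 1.06 (SE 0.20, adjusted p = 0.0403), and 73 probe sets were then called over the whole table. Without the diabetic sedentary array of week 3 it was 0.70 (SE 0.20, adjusted p = 0.0434), with 1040 called. In the other alternatives it did not pass. A complete separation of the 4 diabetic from the 4 healthy arrays of weeks 3 and 5, upwards, was seen in 1.57% of all probe sets tested. Both probe sets of Iigp1 showed it, and those of Gbp3, Gbp2 and Irgm1 did not. Igtp showed it too, but its differences of all weeks were known when it was chosen, so it is not counted here.

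Training was not part of the choice of these genes and was tested. The model held no term for diabetes by week, so the high diabetic signals of week 1 add to its spread and its SE. With that term added, no probe set passed either. None of the 6 probe sets passed for training over both disease states, in diabetic hearts, in healthy hearts or for the interaction of diabetes with training. In each of these comparisons 0 of 7453 probe sets passed (0%), with 257, 533, 152 and 321 at an unadjusted p under 0.05, none of them a probe set of the 5 genes. Over both disease states the log2 differences between trained and sedentary hearts ran from -0.30 to 0.17 (SE 0.26 to 0.36), with a median of 0.07 where that of all tested probe sets was -0.02. The largest was that of Iigp1 by the brighter probe set (-0.30, SE 0.30, adjusted p = 0.998).

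In diabetic hearts the training differences ran from -0.44 to 0.17 (SE 0.36 to 0.51), led by Iigp1 by the brighter probe set (-0.44, SE 0.42, adjusted p = 0.743) and Gbp2 (-0.27, SE 0.49, adjusted p = 0.874). In healthy hearts they ran from -0.16 to 0.59, with Gbp2 highest (0.59, SE 0.49, adjusted p = 0.999), at 58.8 ± 2.02 in trained and 40.5 ± 12.7 in sedentary hearts (SD, n = 3 each). The interaction was largest for Gbp2 too (-0.86, SE 0.70, adjusted p = 0.859). These differences moved with single arrays. In diabetic hearts that of Gbp2 was 0.10 without the diabetic trained array of week 3 and 0.35 without the diabetic sedentary array of week 1, and that of Iigp1 was 0.026 without that sedentary array. In healthy hearts that of Gbp2 was 0.07 without the healthy trained array of week 3 and 1.21 without that of week 1. The interaction of Gbp2 lay between -1.48, without the healthy trained array of week 1, and -0.24, without the diabetic sedentary array of week 1.

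At week 1 alone, the trained pool was lower than the sedentary pool for all 6 probe sets in diabetic hearts and higher for all 6 in healthy hearts. In diabetic hearts the log2 differences between trained and sedentary lay between -0.69 (Gbp2) and -0.33 (Iigp1 by the dimmer probe set), and in healthy hearts between 0.19 (Gbp2) and 0.64 (Gbp3). Of all tested probe sets 22.9% showed this pair of signs. Weeks 3 and 5 showed no such split, with 4 of 6 and 1 of 6 probe sets lower in trained diabetic hearts and 3 of 6 and 2 of 6 lower in trained healthy hearts. Each of these weekly differences sets 1 pool against 1 and was not tested.

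**Figure D3:**
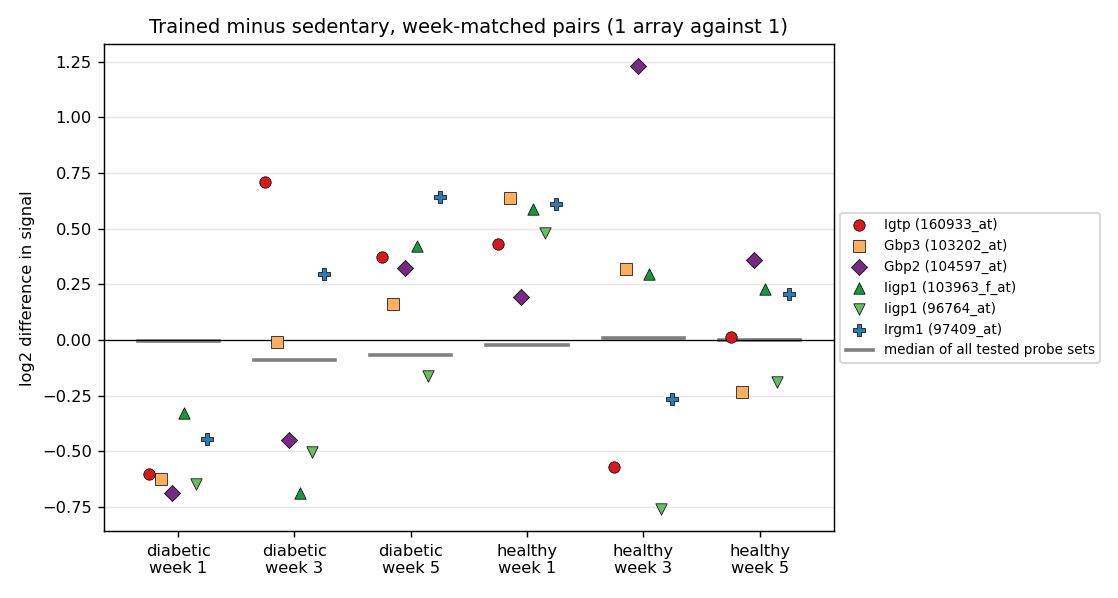
Log2 difference in signal, trained minus sedentary, in each week-matched pair of arrays of diabetic (left) and healthy (right) hearts, 1 point per probe set, with the median of all tested probe sets as a grey bar. At week 1 all 6 points lie below 0 in diabetic hearts and above 0 in healthy hearts, while at weeks 3 and 5 they lie on both sides of 0.

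Whether week 1 itself carried high GTPase signals was tested in healthy hearts, which hold none of the pools that chose the genes. None of the 6 probe sets differed past the threshold between week 1 (2 arrays) and weeks 3 and 5 (4 arrays), nor did any of 7453 probe sets (0%, with 493 at an unadjusted p under 0.05). The log2 differences ran from -0.18 to 0.65 with a median of 0.18. Igtp had the largest, with 22.8 and 16.9 at week 1 against 10.5 to 15.6 later (0.65, SE 0.34, adjusted p = 0.763).

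Of the other interferon-induced GTPases, the near relatives Gbp7 and Irgm2 showed the week 1 pattern. Mx2, an antiviral GTPase of another family, had week 1 diabetic signals near 13.8 and a log2 ratio of 0.25. Gbp7 had 266.2 and 449.1 in the diabetic trained and diabetic sedentary pools of week 1, against 39.9 to 122.8 on the other 10 arrays. Irgm2, another regulator of the family and the neighbour of Igtp, had 159.6 and 214.4 against 29.3 to 47.5. Mx2 had 14.1 and 13.2 against 7.5 to 32.3. The 32.3 was that of the diabetic trained array of week 3. Without that array both pools lay above the rest, the sedentary one by a narrow gap. Mx1 was under 13.8 on 11 arrays, and Gbp2b was under 4.1, the floor set for signals, on all 12. A probe set annotated to both Tgtp1 and Tgtp2, which are immunity-related GTPases too, had 329.9 and 377.7 against 16.1 to 42.3 and the largest such ratio of all 7453 probe sets. The other GTPase probe set with more than 1 symbol, annotated to Gbp4 and Gbp8, had 4.0 and 2.9 against 1.5 to 10.8, all under 13.8. In that ranking Igtp had rank 2, Gbp3 rank 3, Gbp2 rank 4, Iigp1 ranks 5 and 9, Gbp7 rank 6, Irgm2 rank 8 and Irgm1 rank 147.

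The list of the interferon gamma receptor and its signalling held 22 measured genes besides these, of which 10 were bright enough to test. Their median log2 ratio of the diabetic week 1 pools over the other 10 arrays was 0.03, against 0.02 for all tested probe sets. Irf1, a transcription factor that interferon gamma induces, had 87.7 and 92.7 against 30.1 to 68.1 and was the 1 gene of the 10 with both pools above all others. Irf8, a related factor of myeloid cells, had 24.2 and 34.4 against 4.4 to 29.1. Without the diabetic trained array of week 3 its range ended at 19.3, below both pools. Ifngr2, a chain of the receptor, had 51.3 and 58.3 against 53.8 to 146.7. Ifng itself was under the floor of 4.1 on all 12 arrays, and its induced chemokine Cxcl9 had 4.9 and 9.9 against 0.5 to 7.1, all under 13.8.

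Type I interferon signalling was measured by 16 genes, 10 of them tested, with a median ratio of 0.12. Irf9, the DNA-binding partner of the Stat factors, had 62.0 and 64.8 against 25.6 to 43.2 and was the 1 gene of the 10 with both pools above all others. In the list of antiviral genes induced by type I interferon, 5 of 15 tested genes had both pools above the other arrays, and the median was 0.35. Ifit3 had 33.6 and 40.6 against 9.9 to 19.9, Ifit2 33.5 and 30.4 against 1.5 to 29.6, Ifit1 23.1 and 21.1 against 5.8 to 17.5 (interferon-induced antiviral proteins), and Isg15, a ubiquitin-like modifier, 62.8 and 64.0 against 31.1 to 58.1. Ifi47, an immunity-related GTPase that was on this list, was too dim to be tested, with 18.1 and 35.5 against 0.8 to 8.5. Eif2ak2, the double-stranded RNA kinase, had 18 and 10.1 against 10.7 to 43.3.

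Antigen processing and presentation, also induced by interferon gamma, had the highest median of the lists with more than 3 tested genes. Both diabetic week 1 pools were above the other 10 arrays in 11 of 17 tested genes, where 2.03% of all tested probe sets were, and the median ratio was 1.03. Psmb9, a subunit of the immunoproteasome, had 64.8 and 79.5 against 4.6 to 34.3, Tap1, a peptide transporter, 70.9 and 95.2 against 18.1 to 33.3, and B2m, the light chain of class I molecules, 900.1 and 1114.1 against 233.2 to 491.5. H2-Aa, a class II chain, had 78.3 and 129.9 against 5.6 to 79.9. By contrast, the autophagy genes through which these GTPases are handled had a median of 0.14, with Gabarapl1, an Atg8 family protein, the 1 of 12 tested with both pools above the rest (359.6 and 418.4, against 203.9 to 331.7) and Atg5 at 35.6 and 33.5 against 29.1 to 57.6. None of the tested genes of these 6 lists passed for training in any form, for diabetes at weeks 3 and 5 or for week 1 in healthy hearts.

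**Figure D4:**
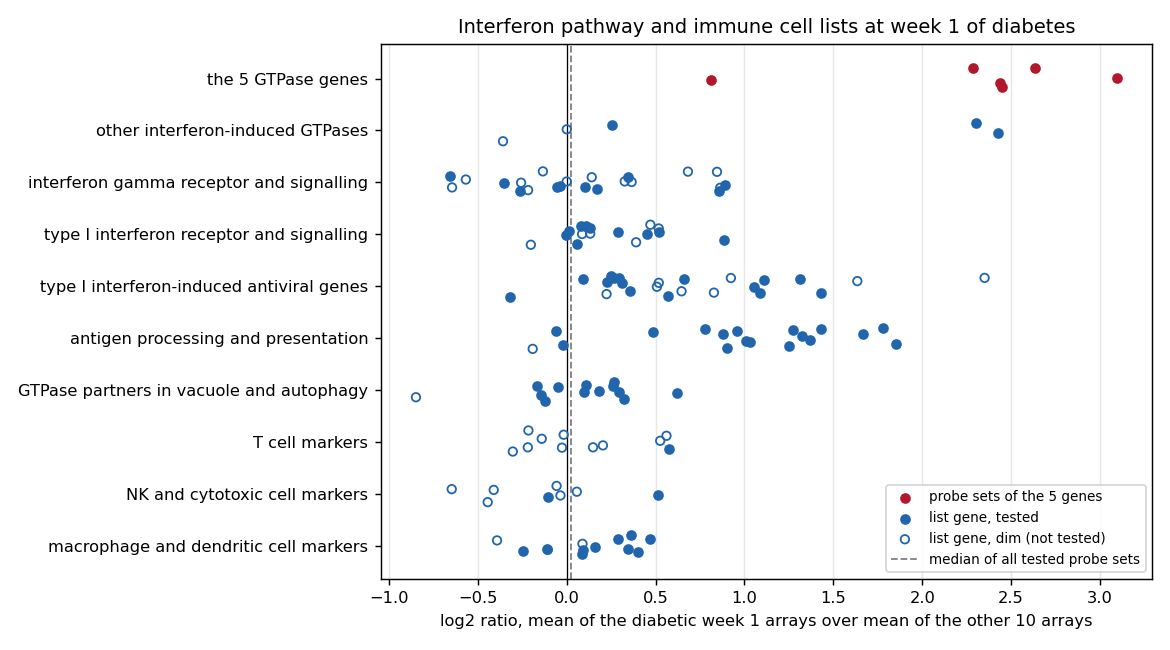
Log2 ratio of the mean of both diabetic week 1 arrays over the mean of the other 10 arrays for the 6 probe sets of the 5 GTPase genes and for the genes of each list, filled where the probe set was tested and open where it was too dim. The GTPases lie between 0.81 and 3.10, antigen presentation has a median of 1.03, and the lists of receptors and autophagy genes have medians of 0.03 to 0.14, near that of all tested probe sets (0.02).

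The summed signals of markers of T cells, natural killer cells and macrophages in the week 1 diabetic pools lay within the range of the other 10 arrays, but for T cells only through the diabetic trained array of week 3. For 11 T cell markers the sums were 104.2 and 82.9 there, in trained and then sedentary hearts, against 89.4 and 88.1 in healthy hearts of week 1 and 44.2 to 226.2 over the other 10 arrays. Without the diabetic trained array of week 3 the range was 44.2 to 96.1, and the diabetic trained pool of week 1 lay above it. Cd4, the 1 T cell marker bright enough to test, had 34.7 and 33.2 in those pools against 10.8 to 80.7 on the other 10 arrays, or to 32.6 without the diabetic trained array of week 3, with a log2 ratio of 0.57. The ratios of the 11 markers ran from -0.30 (Cd5) to 0.57, with Zap70 at 0.56 and Cd247 at 0.53. The T cell receptor chains Cd3e (3.6 and 3.7), Cd3d (6.8 and 2.5) and Cd3g (8.1 and 1.0), given as diabetic trained and then diabetic sedentary, were all under 13.8. The summed signal of 8 natural killer and cytotoxic cell markers was 48.8 and 65.4, against 73.6 and 69.8 in healthy hearts of week 1 and 32.3 to 220.7 over the other 10. For 13 macrophage and dendritic cell markers the sums were 945.7 and 1047.8, against 985.0 and 816.1 in healthy hearts of week 1. Over the other 10 arrays they ran from 614.2 to 1133.8. Of the 10 tested, 1 had both pools above the rest (Cd14, 134.0 and 118.7 against 75.9 to 111.0). Fcgr1 had 36.0 and 33.7 against 18.4 to 71.5, or to 30.7 without the diabetic trained array of week 3, below both pools. The median log2 ratio of the 10 was 0.22. The highest sums of T cell and natural killer markers were both on the diabetic trained array of week 3. In a bulk sample, fewer cells of a type and less RNA per cell cannot be told apart. The 13 cardiomyocyte markers, such as Myh6 and Tnnt2, had a median ratio of 0.03, and all 13 passed the filter on dim signals. The part of immune cell numbers in the GTPase signals was not tested.

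The genes most like Igtp over the 12 arrays, by Pearson correlation of log2 signal and leaving out the 5 genes, were Psmb8, a subunit of the immunoproteasome (r = 0.943), Irgm2 (0.925), and the class I genes H2-K1 (0.909) and H2-D1 (0.907), followed by Cyp4b1, Mt1, H2-Q4, Nr1h3, Tap1 and Hmox1 (0.850 to 0.879). Since 2 arrays lie far above the rest, r was also taken over the other 10, where it was 0.651 for Psmb8, 0.478 for Irgm2, 0.071 for Tap1 and 0.965 for Nr1h3, a nuclear receptor for oxysterols. Nr1h3 had 61.9 and 66 in the diabetic trained and diabetic sedentary pools of week 1 and 36.6 to 61.4 on the other arrays. The genes most like the mean profile of all 5 were Gbp7 (0.954, and 0.801 over the other 10 arrays), Irgm2 (0.918 and 0.207), H2-K1, Psmb8, H2-Q4, H2-D1, B2m, Ifit3, Ifitm3 and H2-K2 (0.831 to 0.912). Among the 6 probe sets themselves, r over those 10 arrays ran from -0.227 (Igtp with Gbp2) to 0.789 (Gbp3 with Iigp1 by the dimmer probe set) in 15 pairs, with a median of 0.548. Without the diabetic trained array of week 3, Igtp with Gbp2 was at 0.127 and the median was 0.541. All arrays share the groups and weeks, so these values describe the likeness of profiles and were not tested.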

How the data were processed

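The members and gene lists were chosen with earlier results of these data known. Per the submitters' processing notes the authors used MAS5 (version and settings not given in the sources used here), and the deposited table holds linear intensities, 1 signal per probe set and array. Per the file headers the experiment files hold run settings and were read for run day, chip lot and fluidics module. Per the labels' protocols the RNA of each group was pooled.

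Symbols came from the platform annotation (10833 probe sets with 1 symbol, 396 with several, 1193 with none), updated through RefSeq GRCm38.p6, and probe sets with several were given no single name. Before taking log2, signals under 4.1 (20th percentile) were raised to 4.1. Probe sets with a mean at or above the 40th percentile (geometric mean 11.6) were tested with limma 3.58.1 in R 4.3.3 (lmFit, eBayes with trend), p adjusted by Benjamini-Hochberg, threshold 0.05. The models held condition and week, with diabetes by week for the tests by week. The code was checked on simulated data. Week, the number that arrays of different groups share, was a block in the models. Per the labels, sedentary mice were killed at the same time as their trained partners. Deviations of arrays of the same week correlated at 0.080 to 0.640 (18 pairs).

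Named were all members, up to 4 genes of each list with the largest week 1 ratios on either side, and the 10 genes most alike. Other list genes (Ifng, Cxcl9, Mx1, Gbp2b, Isg15, Atg5, Ifi47, H2-Aa, B2m, Cd14, Fcgr1, Cd4, Cd5, Zap70, Cd247, the Cd3 chains) and the probe sets with several GTPase symbols were named after their values were seen.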

Additional observations from a re-analysis of the deposited data

How the results depend on the processing

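The median week 1 ratio of the 6 probe sets (log2 2.44) kept its direction in 18 alternatives (2.12 to 2.78), among them each left-out array, and the median diabetes difference over all weeks (1.18) was 0.51 without all of week 1, 1.71 without all of week 5 and 0.87 to 1.40 without any 1 array. The count of 0 probe sets past the threshold held in all alternatives for training (25 each) and for week 1 in healthy hearts (23). For diabetes at weeks 3 and 5 it was 0 to 1 without any 1 array and 0 elsewhere, while calls over the whole table ran from 0 (no filter, no trend, no replicate block, without healthy trained week 5) to 1040. Without week as a replicate block, 0 probe sets of the genes passed in each test where that fit could be made. It could not for week 1 in healthy hearts, nor could one without week 1. At weeks 3 and 5 Gbp3 was at -0.0047 without week 3 and Gbp2 at -0.10 without week 5 and between -0.12 and 0.36 without any 1 array. In diabetic hearts the training difference ran from -0.64 to 0.35 for Gbp2 and from -0.85 to 0.026 for Iigp1 (the brighter probe set) without any 1 array. The cause was not tested. With 1 pool per group and week, the number of arrays limits the precision.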
